A study of Danio rerio with 12 samples.

Results

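The solute carriers that move amino acids and neurotransmitters across membranes were examined in MB and HS fractions of zebrafish larvae. Members were all genes of the count tables whose Ensembl identifier maps to a zebrafish symbol beginning with slc1a, slc3a, slc6a, slc7a, slc36a, or slc38a and a digit. The rule found 75 of the 31778 genes, 12 in slc1, 3 in slc3, 27 in slc6, 18 in slc7, 2 in slc36, and 13 in slc38. Of these, 74 are carriers. The remaining member, *slc7a6os*, matches by its letters alone, encodes no carrier, and lies next to *slc7a6* in the reference gene order. For 11 members several genes share the symbol in the reference and no paralogue letter is given. These carry their Ensembl identifier in the name. Some other members, such as *slc3a2* and *slc38a5*, also have no letter although a paralogue has one.

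All larvae were of the AB strain, were collected at 5 dpf, and carried Tg(Xla.Eef1a1:mlsEGFP)cms1, a transgene in which an elongation factor promoter of Xenopus drives EGFP targeted to mitochondria. WT larvae came from an incross of mia40a+/+ fish. The *chchd4a*-/- larvae (mia40a -/- in the labels) came from an incross of heterozygous carriers and were picked under a fluorescence microscope by the shape of their GFP-marked mitochondria. Chchd4a, also known as Mia40a, serves the import of proteins into the mitochondrial intermembrane space. Whole larvae were pooled and homogenized. MB is the membrane-bound material that sedimented at 14000 g once nuclei and debris had been removed, and HS is what sedimented from the remainder at 100000 g. Blots of the authors showed mitochondria and endoplasmic reticulum (ER) in MB, and parts of the ER in HS as well. The authors take HS to hold both ER-bound and free ribosomes. A higher level in HS therefore does not show that an mRNA was away from the ER. Each combination of genotype and fraction had 3 libraries, 12 in all. The genotypes came from separate crosses and the labels do not say whether they were fractionated together, so genotype and round of fractionation cannot be told apart. Nor do they say that replicates were separate pools of larvae, so p-values measure the spread between these libraries, which may be technical.

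Most carriers span the membrane many times, and as a rule such proteins are made by ribosomes bound to the ER. SLC1 carriers take up glutamate or exchange small neutral amino acids. SLC6 carriers use the sodium gradient to clear GABA, glycine, and monoamines from the synapse or to absorb neutral amino acids in gut and kidney. Several SLC7 carriers work only as pairs, in which a light chain is joined to an SLC3 heavy subunit. SLC38 and SLC36 carriers move glutamine and other small neutral amino acids, and some of them sit in the lysosome. Under amino acid shortage or mitochondrial stress, mammalian cells raise the transcription of several of these carriers through the factor ATF4.

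Gene counts summed to 45621437 to 96059830 per library, and the members took 0.143% to 0.397% of them. Spike-in RNA took 1.77% to 30.0% of all counts, the most in WT HS replicate 1. WT replicate 1 stood apart. Its HS library correlated with the other WT HS libraries at 0.929 and 0.908 across genes, where these correlated with each other at 0.992, and in MB the values were 0.974 and 0.977 beside 0.996. Of the 74 carriers, 41 had their highest and 27 their lowest WT HS level in that replicate, and 12 were there more than 2-fold above both other libraries. In *chchd4a*-/- HS, replicate 2 was the highest for 57 carriers and replicate 3 the lowest for 43. The mutated gene was not lower in the mutant. *chchd4a* had 3.8, 12, and 12.4 CPM in WT HS replicates 1, 2, and 3 and 17.5, 11.4, and 27 CPM in *chchd4a*-/- HS (log2 ratio 0.98, edgeR adjusted p = 0.0938), so its level gives no check of the labels. CPM are the counts of a gene relative to the library total after TMM scaling, on the usual scale. They are not divided by gene length, so levels are compared between libraries and not between genes.

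The first question was in which fraction the mRNAs of these carriers were found. Of the 73 carriers tested in WT, 33 were MB-enriched and 3 were HS-enriched. Of the 72 tested in *chchd4a*-/-, 33 were again MB-enriched and 3 HS-enriched. Among all genes tested, 12.4% were MB-enriched and 13.3% HS-enriched in WT, and 17.0% and 20.0% in *chchd4a*-/-. The median log2 enrichment, the log2 of the level in MB over that in HS, was 0.86 over the carriers in both genotypes, beside 0.08 and -0.01 over all genes. In WT, every MB library was above every HS library for 42 carriers, where 26.0% of all genes showed this, and every MB library was below for 4 (20.8% of all genes). For the mutant, the counts were 45 (28.9% of all genes) and 6 (23.8%). In WT, 66 of the 73 carriers lay above 0, beside 53.4% of all genes, and in *chchd4a*-/- 61 of the 72, beside 49.4%. MB enrichment in both genotypes was called for 23 carriers, and 59 of the 72 carriers tested in both lay above 0 in both. The share of all genes was not counted for both genotypes jointly, so these joint counts have no background here. Other solute carriers outside the mitochondrial slc25 family had 97 of 262 MB-enriched and 2 HS-enriched in WT with a median of 0.80, and 121 and 9 in *chchd4a*-/- with a median of 0.79.

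A gene was tested where its counts over the 6 libraries of a genotype exceeded 50, which *slc38a8* ENSDARG00000009482 did in neither genotype and *slc7a14b* only in WT. The fractions of each genotype were compared by the quasi-likelihood test of edgeR, a call is a Benjamini-Hochberg adjusted p of at most 0.05 over all genes tested, and values are log2 ratios ± SE. Calls were made without a block. A second adjusted p, with the replicate number as a block, is printed only for carriers that it called and the main test did not. These values are therefore a selection and change no call. All of those printed lie on the MB side, although in *chchd4a*-/- the block called 4 carriers HS-enriched and the main test 3. The WT calls depend on single libraries. Without WT MB replicate 2 or without WT MB replicate 3, 0 carriers were MB-enriched (32 and 31 at an unadjusted p under 0.05) and 0 were HS-enriched (3 and 3), without WT HS replicate 2 or 3 there were 11 and 14 MB-enriched carriers, without HS replicate 1 there were 50, and without replicate 1 of both fractions 58. Among *chchd4a*-/- libraries, leaving out HS replicate 1 gave 17 and leaving out HS replicate 2 gave 48, and there was 1 without replicate 1 of both fractions (28 at an unadjusted p under 0.05). None of the carriers called in either genotype changed sign in any fit with 1 library left out. All ratios are relative to the bulk of genes, since scaling to spike-ins moved the median of all genes by 2.54 in WT and 1.94 in *chchd4a*-/- on the log2 scale and scaling to library totals by 0.51 and 0.82. Against spike-in RNA alone every HS-enriched carrier lay above 0. The authors added spike-ins to a fixed mass of RNA per sample, so this scaling is per mass of RNA and not per fraction. The share of spike-ins also differed within a group, at 30.0%, 14.2%, and 9.82% in WT HS replicates 1, 2, and 3.

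**Figure D1:**
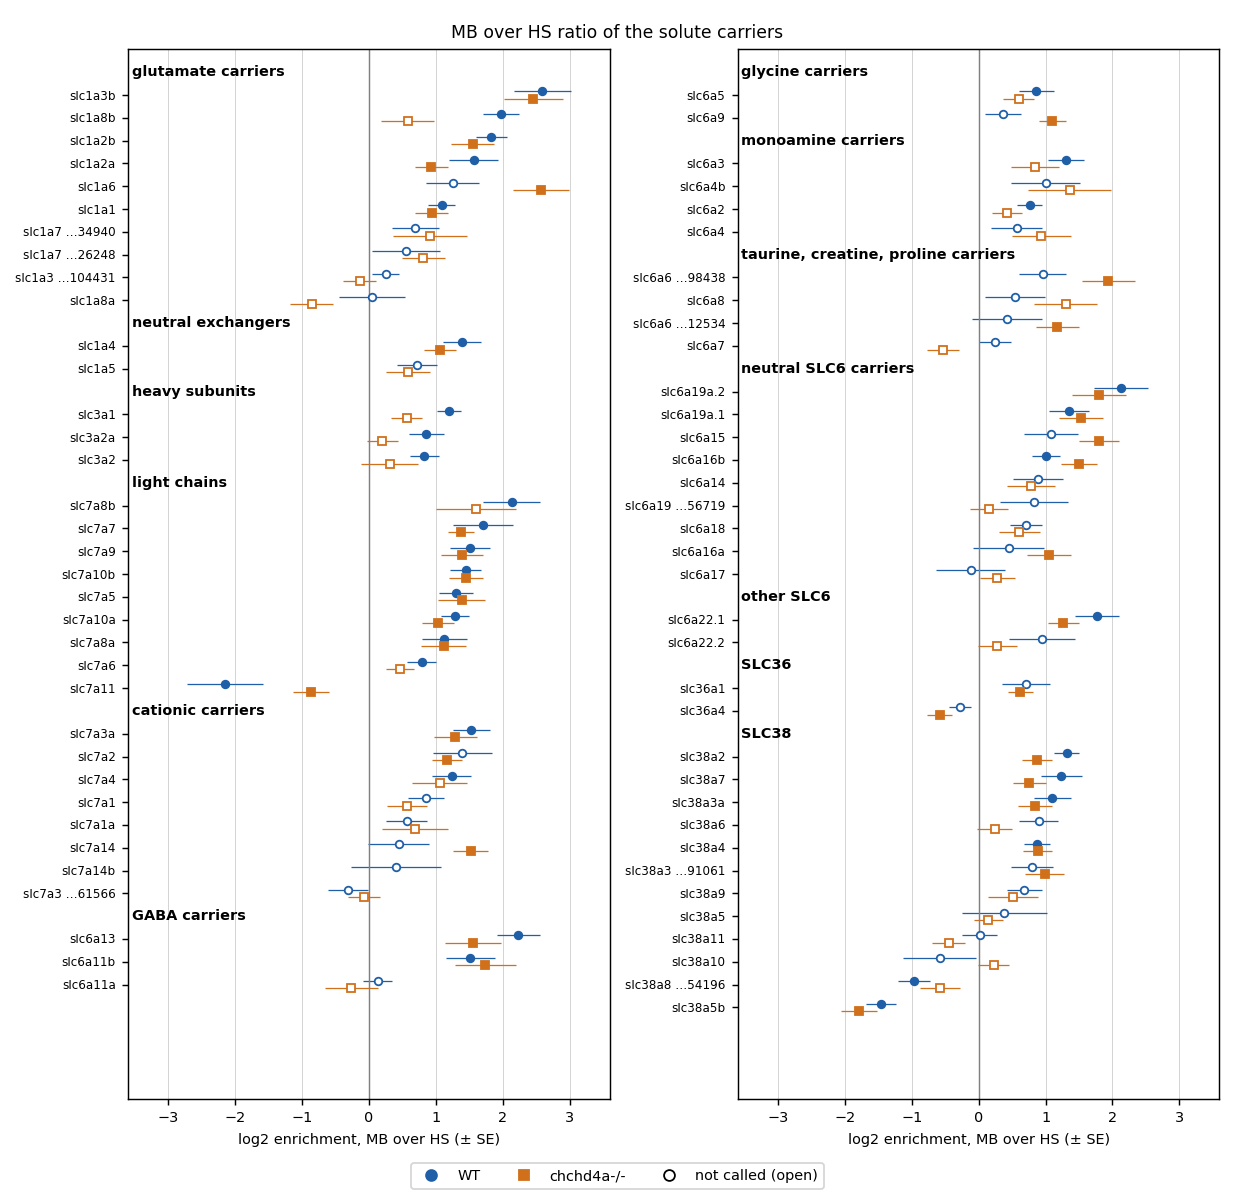
log2 enrichment of the carriers reported by name (MB over HS, ± SE, TMM scaling) by role, in WT (circles) and *chchd4a*-/- (squares), with filled symbols for an adjusted p of at most 0.05. Most symbols lie to the right of 0, and *slc7a11* and *slc38a5b* lie to the left in both genotypes (with spike-in scaling, both lie above 0). The last digits of the Ensembl identifier mark genes that share a symbol.

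Among the glutamate carriers, 5 of 10 were MB-enriched in WT and 5 of 10 in *chchd4a*-/-, with medians of 1.17 and 0.92. The *slc1a2* and *slc1a3* genes encode, in mammals, the glial carriers that clear most of the synaptic glutamate. *slc1a2b* had 155, 137, and 122 CPM in WT HS and 390.3, 544, and 532 CPM in WT MB, and 144, 166, and 77.9 CPM in *chchd4a*-/- HS and 463, 376, and 352 CPM in *chchd4a*-/- MB. The fractions did not overlap in either genotype. The log2 enrichment was 1.83 ± 0.23 (adjusted p = 0.00592) in WT and 1.55 ± 0.32 (adjusted p = 0.00625) in *chchd4a*-/-. Its paralogue *slc1a2a* went the same way, at 1.57 ± 0.37 (adjusted p = 0.0237) in WT and 0.93 ± 0.25 (adjusted p = 0.0182) in the mutant. *slc1a3b* had the highest log2 enrichment of the WT carriers, 2.59 ± 0.43 (adjusted p = 0.00956), from 4.54, 2.47, and 1.44 CPM in HS to 21, 15, and 14.3 CPM in MB. The mutant value was 2.46 ± 0.44 (adjusted p = 0.00369).

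The other *slc1a3* gene (ENSDARG00000104431) did not follow its paralogue. It had 39.5, 30.9, and 26.8 CPM in WT HS and 40.3, 37.6, and 37.4 CPM in WT MB, which overlap, and its log2 enrichment was 0.25 ± 0.20 (adjusted p = 0.376) in WT and -0.14 ± 0.25 (adjusted p = 0.666) in *chchd4a*-/-. *slc1a1*, the carrier of neurons and epithelia in mammals, was MB-enriched in both genotypes, at 1.08 ± 0.21 and 0.94 ± 0.24. For *slc1a6*, a carrier of Purkinje cells in mammals, the log2 enrichment was 2.57 ± 0.42 (adjusted p = 0.00264) in *chchd4a*-/- and 1.25 ± 0.40 (adjusted p = 0.0544, or 0.0145 with the replicate number as a block) in WT, on levels of 1.34, 0.513, and 0.591 CPM in WT HS and 0.172, 0.476, and 0.178 CPM in *chchd4a*-/- HS. For *slc1a8b*, the order was the other way round, with 1.97 ± 0.27 (adjusted p = 0.00645) in WT and 0.58 ± 0.40 (adjusted p = 0.267, or 0.0325 with the replicate number as a block) in *chchd4a*-/-. As the difference between genotypes, the 12 libraries gave 1.40 ± 0.59 for *slc1a6* and -1.32 ± 0.51 for *slc1a8b*, with adjusted p of 0.302 and 0.265 by edgeR.

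The exchangers of neutral amino acids, *slc1a4* and *slc1a5*, lay above 0 in both genotypes. *slc1a4* was MB-enriched at 1.38 ± 0.28 (adjusted p = 0.0163) in WT and 1.06 ± 0.24 (adjusted p = 0.00985) in *chchd4a*-/-. *slc1a5* had 25, 40.7, and 32.4 CPM in WT HS and 35.3, 65.6, and 59.5 CPM in WT MB, and its log2 enrichment was 0.71 ± 0.30 (adjusted p = 0.113, or 0.0283 with the replicate number as a block) in WT and 0.58 ± 0.32 (adjusted p = 0.175, or 0.0373 with the replicate number as a block) in the mutant.

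Heavy subunits and light chains form the heterodimeric exchangers. All 3 heavy subunits were MB-enriched in WT and 0 of 3 were called in *chchd4a*-/- (3 above 0). *slc3a1*, the partner of *slc7a9* in the uptake of cystine and cationic amino acids in kidney, went from 8.98, 9.64, and 9.65 CPM in WT HS to 19.9, 21.6, and 22.9 CPM in WT MB, a log2 enrichment of 1.19 ± 0.18 (adjusted p = 0.0076). The levels in *chchd4a*-/- were 11.8, 14.2, and 9.98 CPM in HS and 18.9, 15, and 21.7 CPM in MB, and the log2 enrichment was 0.56 ± 0.23 (adjusted p = 0.079). The fractions did not overlap in either genotype. *slc3a2* and *slc3a2a* encode the heavy subunit shared by most other light chains. They were MB-enriched in WT at 0.83 ± 0.22 (adjusted p = 0.0335) and 0.86 ± 0.26 (adjusted p = 0.0476), and in *chchd4a*-/- the values were 0.31 ± 0.43 (adjusted p = 0.58) and 0.20 ± 0.23 (adjusted p = 0.512). The enrichment was lower in *chchd4a*-/- by 0.56, 0.44, and 0.59 for *slc3a1*, *slc3a2*, and *slc3a2a*, but none of these differences passed the test (edgeR adjusted p = 0.391, 0.76, and 0.47).

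Of the 9 light chains, 8 were MB-enriched in WT and 6 in *chchd4a*-/-, and 1, *slc7a11*, was HS-enriched in both. *slc7a7*, which exports cationic amino acids from epithelial cells, had 4.6, 14.7, and 14.9 CPM in WT HS and 27.2, 43.9, and 40.6 CPM in WT MB, and 9.29, 11.2, and 11.5 CPM in *chchd4a*-/- HS and 28.3, 25.6, and 32.6 CPM in *chchd4a*-/- MB. The log2 enrichment was 1.71 ± 0.45 (adjusted p = 0.0325) in WT and 1.37 ± 0.20 (adjusted p = 0.00165) in *chchd4a*-/-. WT HS replicate 1 was well below the other HS libraries, and the fractions did not overlap. *slc7a5*, a carrier of large neutral amino acids such as leucine, was enriched at 1.30 ± 0.25 (adjusted p = 0.0146) and 1.39 ± 0.35 (adjusted p = 0.0148). The *slc7a8* paralogues, which carry neutral amino acids across basolateral membranes, were MB-enriched in WT as well. *slc7a8a* reached 1.13 ± 0.34 in WT and 1.12 ± 0.34 in the mutant. *slc7a8b* stood at 2.13 ± 0.42 (adjusted p = 0.0151) in WT and at 1.60 ± 0.59 (adjusted p = 0.0589, or 0.000178 with the replicate number as a block) in *chchd4a*-/-. *slc7a9*, *slc7a10a*, and *slc7a10b* were MB-enriched in both genotypes at 1.03 to 1.51. *slc7a6* was MB-enriched in WT at 0.79 ± 0.21 (adjusted p = 0.0357) and was at 0.46 ± 0.20 (adjusted p = 0.1) in *chchd4a*-/-. Its reads and those of its neighbour *slc7a6os*, whose symbol stands for opposite strand, are uncertain because the strand setting of the counting is not given in the sources used here.

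*slc7a11*, the light chain that brings in cystine in exchange for glutamate, lay on the HS side. Its levels were 761, 256, and 155 CPM in WT HS replicates 1, 2, and 3 and 100.9, 84.7, and 76.5 CPM in WT MB. WT HS replicate 1 was far above the other libraries, yet all 3 HS libraries exceeded all 3 MB libraries. The log2 enrichment was -2.15 ± 0.57 (adjusted p = 0.0321), a 4.45-fold higher level in HS (but 0.98 with spike-in scaling), and it ran from -2.68 to -1.23 when libraries were left out. The mutant levels were 75.9, 82.7, and 62.3 CPM in HS and 46.6, 27.5, and 52.4 CPM in MB, again without overlap, at -0.87 ± 0.27 (adjusted p = 0.0328), but 0.90 with spike-in scaling.

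Of the cationic carriers, 2 of 8 were MB-enriched in WT and 3 of 7 in *chchd4a*-/-. Most of these take up arginine, lysine, and ornithine. *slc7a3a* had 12.4, 15.2, and 14.4 CPM in WT HS and 26.1, 48.5, and 46.6 CPM in WT MB, and its log2 enrichment was 1.53 ± 0.28 (adjusted p = 0.0118) in WT and 1.29 ± 0.32 (adjusted p = 0.014) in *chchd4a*-/-. The other *slc7a3* gene (ENSDARG00000061566) lay below 0, at -0.31 ± 0.30 (adjusted p = 0.458) and -0.08 ± 0.24 (adjusted p = 0.814). *slc7a2* was at 1.40 ± 0.44 (adjusted p = 0.0546, or 0.00883 with the replicate number as a block) in WT and at 1.17 ± 0.22 (adjusted p = 0.0045) in *chchd4a*-/-. *slc7a1* was at 0.85 ± 0.27 (adjusted p = 0.0545, or 0.0218 with the replicate number as a block) and 0.57 ± 0.30 (adjusted p = 0.153, or 0.0349 with the replicate number as a block), and *slc7a1a* at 0.56 ± 0.31 (adjusted p = 0.208) and 0.69 ± 0.49 (adjusted p = 0.285, or 0.0181 with the replicate number as a block). *slc7a14*, found in the brain and retina of mammals, was MB-enriched in *chchd4a*-/- at 1.52 ± 0.26 (adjusted p = 0.00308) and not called in WT at 0.45 ± 0.46 (adjusted p = 0.489), where HS replicate 1 held 22.6 CPM and the other HS libraries 7.31 and 7.4 CPM.

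Of the 6 GABA carriers, 3 were MB-enriched in WT and 3 in *chchd4a*-/-, among them *slc6a13* and *slc6a11b* in both. *slc6a13*, a carrier of GABA in liver, kidney, and meninges of mammals, was MB-enriched at 2.24 ± 0.33 (adjusted p = 0.0074) in WT and 1.56 ± 0.41 (adjusted p = 0.0181) in *chchd4a*-/-. *slc6a11b*, a counterpart of a carrier of astrocytes, was at 1.52 ± 0.37 (adjusted p = 0.0257) and 1.74 ± 0.45 (adjusted p = 0.0167), whereas its paralogue *slc6a11a* was at 0.13 ± 0.22 (adjusted p = 0.68) and -0.27 ± 0.40 (adjusted p = 0.614). *slc6a13* had 0.958, 1.19, and 0.938 CPM in WT HS and 3.01, 5.94, and 5.57 CPM in WT MB, and 2.5, 3.39, and 0.921 CPM in *chchd4a*-/- HS and 7.73, 7.15, and 6.25 CPM in *chchd4a*-/- MB. The fractions did not overlap in either genotype.

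Both glycine carriers lay above 0. *slc6a5*, the carrier of glycinergic nerve endings, was MB-enriched in WT at 0.86 ± 0.26 (adjusted p = 0.0474) and was at 0.60 ± 0.23 (adjusted p = 0.0676, or 0.0247 with the replicate number as a block) in *chchd4a*-/-. *slc6a9*, the glial carrier, had 304, 183, and 165 CPM in WT HS and 277, 293, and 265 CPM in WT MB, which overlap, and 68.7, 81, and 76.2 CPM in *chchd4a*-/- HS and 177, 174, and 155 CPM in *chchd4a*-/- MB, which do not. Its log2 enrichment was 0.36 ± 0.27 (adjusted p = 0.347) in WT and 1.10 ± 0.20 (adjusted p = 0.00418) in *chchd4a*-/-, and the difference of 0.80 ± 0.33 had an adjusted p of 0.298 by edgeR.

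Of the monoamine carriers, 2 of 4 were MB-enriched in WT and 0 of 4 in *chchd4a*-/-, with all 4 above 0 in both. The noradrenaline carrier *slc6a2* had 9.81, 12, and 10.3 CPM in WT HS and 17.1, 19.1, and 18.3 CPM in WT MB, and was at 0.76 ± 0.19 (adjusted p = 0.0254) in WT and 0.42 ± 0.23 (adjusted p = 0.166) in the mutant. The dopamine carrier *slc6a3* was at 1.30 ± 0.27 (adjusted p = 0.0174) and 0.85 ± 0.36 (adjusted p = 0.0874, or 0.023 with the replicate number as a block). The serotonin carriers *slc6a4* and *slc6a4b* were at 0.57 ± 0.38 (adjusted p = 0.296) and 1.00 ± 0.52 (adjusted p = 0.184) in WT. Mutant values were 0.94 ± 0.44 (adjusted p = 0.115, or 0.0047 with the replicate number as a block) and 1.36 ± 0.62 (adjusted p = 0.108, or 0.0205 with the replicate number as a block), and *slc6a4b* did not exceed 0.434 CPM in any library.

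Carriers of neutral amino acids in SLC6 were MB-enriched for 3 of 9 genes in WT and 5 of 9 in *chchd4a*-/-. *slc6a19a.2*, a counterpart of the main neutral amino acid carrier of gut and kidney, had 12.7, 8.48, and 6.42 CPM in WT HS, 21.2, 47.3, and 51.1 CPM in WT MB, 24.1, 32.1, and 9.05 CPM in *chchd4a*-/- HS, and 78.6, 69.3, and 90.3 CPM in *chchd4a*-/- MB. Its log2 enrichment was 2.13 ± 0.40 (adjusted p = 0.0134) in WT and 1.79 ± 0.40 (adjusted p = 0.00934) in *chchd4a*-/-. It lies beside *slc6a19a.1* and *slc6a18*, and reads of such close copies may be shared between them by the estimate of counts. *slc6a19a.1* was at 1.35 ± 0.30 and 1.53 ± 0.33. *slc6a15*, a carrier of branched-chain amino acids in brain, was at 1.08 ± 0.41 (adjusted p = 0.0872, or 0.0156 with the replicate number as a block) in WT and 1.80 ± 0.30 (adjusted p = 0.00279) in *chchd4a*-/-. Of the carriers of taurine, creatine, and proline, 0 of 4 were called in WT and 2 of 4 were MB-enriched in *chchd4a*-/-, both of them taurine carriers. *slc6a6* (ENSDARG00000098438) was at 0.96 ± 0.35 (adjusted p = 0.0804, or 0.0169 with the replicate number as a block) in WT and 1.94 ± 0.40 (adjusted p = 0.00654) in *chchd4a*-/-, and *slc6a6* (ENSDARG00000012534) at 0.43 ± 0.52 (adjusted p = 0.566) and 1.18 ± 0.32 (adjusted p = 0.0194). The creatine carrier *slc6a8* was at 0.55 ± 0.44 (adjusted p = 0.384) and 1.30 ± 0.47 (adjusted p = 0.0537, or 0.000296 with the replicate number as a block), and the proline carrier *slc6a7* at 0.24 ± 0.24 (adjusted p = 0.469) and -0.53 ± 0.24 (adjusted p = 0.108). *slc6a22.1* was MB-enriched in both, at 1.77 ± 0.33 and 1.27 ± 0.23.

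In SLC38, 4 of 12 carriers were MB-enriched and 2 HS-enriched in WT, and 5 and 1 in *chchd4a*-/-. *slc38a2*, whose mammalian counterpart is induced when amino acids are short, went from 38.7, 41.3, and 42.8 CPM in WT HS to 90.8, 106, and 108 CPM in WT MB, and from 28.6, 40.9, and 41.2 CPM in *chchd4a*-/- HS to 64.9, 64.1, and 83.3 CPM in *chchd4a*-/- MB, with no overlap in either. The log2 enrichment was 1.31 ± 0.18 (adjusted p = 0.00661) in WT and 0.87 ± 0.23 (adjusted p = 0.0163) in the mutant. *slc38a4* was at 0.87 ± 0.20 (adjusted p = 0.0212) and 0.88 ± 0.22 (adjusted p = 0.0137). *slc38a5b*, a glutamine carrier, went the opposite way. It had 720.2, 805, and 805 CPM in WT HS and 339.6, 251, and 252 CPM in WT MB, and 583, 786, and 687 CPM in *chchd4a*-/- HS and 257, 179, and 182 CPM in *chchd4a*-/- MB. The HS libraries were well above the MB libraries in both genotypes, at -1.46 ± 0.23 (adjusted p = 0.0083) in WT and -1.80 ± 0.27 (adjusted p = 0.00193) in *chchd4a*-/-, 2.76-fold and 3.47-fold higher in HS (with spike-in scaling, 0.97 and 0.05 on the log2 scale).

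The *slc38a5* gene without a letter (ENSDARG00000009901) was not called, with 2.56, 14.2, and 11.9 CPM in WT HS and 5.64, 15.8, and 16 CPM in WT MB and log2 enrichments of 0.39 ± 0.64 in WT and 0.14 ± 0.22 in *chchd4a*-/-. *slc38a8* (ENSDARG00000054196) was HS-enriched in WT at -0.97 ± 0.23 (adjusted p = 0.0253) and was at -0.58 ± 0.29 (adjusted p = 0.141) in *chchd4a*-/-. Of the SLC36 pair, proton-coupled carriers of small amino acids, *slc36a1* was at 0.71 ± 0.36 (adjusted p = 0.175, or 0.0306 with the replicate number as a block) in WT and 0.62 ± 0.19 (adjusted p = 0.0305) in *chchd4a*-/-, and *slc36a4* was at -0.28 ± 0.16 (adjusted p = 0.231) and -0.58 ± 0.19 (adjusted p = 0.0363). With spike-in scaling the HS-enriched *slc38a8* and *slc36a4* were above 0, at 1.56 in WT and 1.34 in *chchd4a*-/-. The member *slc7a6os*, which is no carrier, was HS-enriched in WT at -0.59 ± 0.17 (adjusted p = 0.0419), and was at 1.94 with spike-in scaling.

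Further carriers are given for completeness. In SLC38, *slc38a3a* and *slc38a7* were MB-enriched in both genotypes, with log2 enrichments of 1.10 and 1.24 in WT and 0.84 and 0.76 in *chchd4a*-/-. *slc38a3* (ENSDARG00000091061) was MB-enriched in *chchd4a*-/- at 0.98 ± 0.29 and was at 0.80 ± 0.31 in WT. *slc38a9*, a lysosomal carrier that senses arginine in mammals, was at 0.68 ± 0.26 (adjusted p = 0.0927) in WT and 0.52 ± 0.37 (adjusted p = 0.293) in *chchd4a*-/-. *slc38a6* and *slc38a11* were not called in either genotype. *slc7a4* was MB-enriched in WT at 1.24 ± 0.29 and was at 1.06 ± 0.41 (adjusted p = 0.0679, or 0.0104 with the replicate number as a block) in *chchd4a*-/-. *slc6a16b* was MB-enriched in both genotypes at 1.01 and 1.50 and *slc6a16a* in *chchd4a*-/- at 1.05 ± 0.33. The SLC6 carriers *slc6a14*, *slc6a17*, *slc6a18*, *slc6a19* (ENSDARG00000056719), and *slc6a22.2* were not called in either, at -0.12 to 0.95 in WT. Neither were the glutamate carriers *slc1a8a* and the pair of *slc1a7* genes, counterparts of a carrier of the mammalian retina. *slc1a8a* was at 0.04 ± 0.50 in WT and -0.86 ± 0.32 in *chchd4a*-/-, and its paralogue *slc1a8b* is described with the glutamate carriers.

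The next question was whether the mutation changed the distribution between fractions. The MB over HS ratio was called different between genotypes for 0 of the 72 carriers, beside 0.0% of all 23452 genes. The test was 1 edgeR fit of all 12 libraries with a mean per group. At an unadjusted p under 0.05, 2 carriers had a higher and 1 a lower ratio in *chchd4a*-/-, beside 8.37% and 6.01% of all genes. DESeq2 called 0 as well (4 and 2 at an unadjusted p under 0.05). The differences ran from -1.32 for *slc1a8b* to 1.40 for *slc1a6*, with a median of -0.09 over the carriers and -0.07 over all genes. A call made in only 1 genotype, as for the heavy subunits and the monoamine carriers, is not shown to differ between them. The 13 protein genes of mtDNA had a median log2 enrichment of 2.67 in WT and 1.26 in *chchd4a*-/-. For 90 genes listed by symbol as ribosomal protein genes it was -1.11 and -2.10. By edgeR 0 of these differences were called, and 10 and 43 were lower at an unadjusted p under 0.05. Their part in the ratios of the carriers was not tested.

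**Figure D2:**
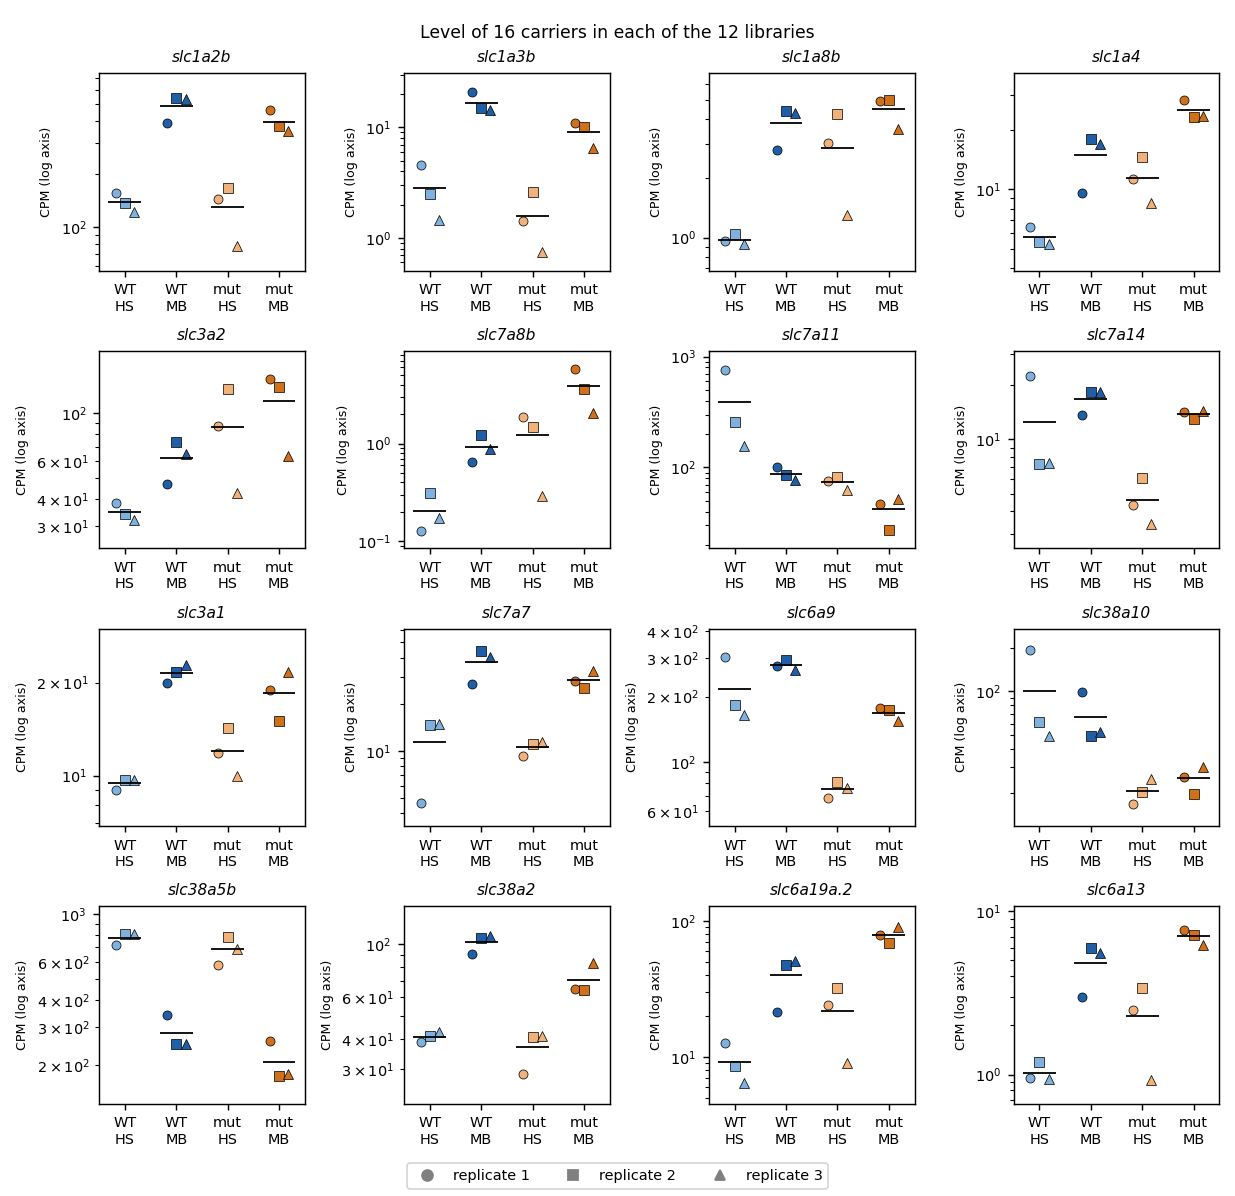
Level of 16 carriers in CPM (log axis, TMM scaling) in each of the 12 libraries, in WT and *chchd4a*-/- (mut), HS and MB. Symbols mark the replicate numbers and bars the group means. The HS libraries of *slc38a5b* lie above its MB libraries, and *slc6a9*, *slc7a11*, and *slc38a10* are lower in *chchd4a*-/- HS than in WT HS (with spike-in scaling, the log2 enrichment of *slc38a5b* and the ratios of the others lie above 0).

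Levels were then compared between genotypes within each fraction. In HS, 4 of 72 carriers were higher in *chchd4a*-/- and 7 were lower, beside 7.25% and 12% of all genes. Both shares are near the background, and the median log2 ratio of *chchd4a*-/- over WT was -0.05 over the carriers and 0.06 over all genes. Every mutant library was above every WT library for 8 carriers (16.3% of all genes) and below for 9 (17.2%). By family, 2 of 12 slc1 genes were higher and 1 lower, 1 of 3 slc3 genes was higher, 0 of 27 slc6 genes were higher and 3 lower, 1 of 16 slc7 genes was higher and 2 lower, 1 of 12 slc38 genes was lower, and 0 of 2 slc36 genes were called. In whole larvae, fewer cells of a type and less RNA per cell cannot be told apart. When only the 6 HS libraries were fitted, 0 of the 11 were called (of the 72 carriers, 7 were higher and 11 lower at an unadjusted p under 0.05), so the calls rest on a spread estimated from all 12 libraries. With the replicate number as a block in these 6 libraries, 0 of the 11 were called as well. Leaving out WT HS replicate 2 or 3 gave 2 higher carriers each, *chchd4a*-/- HS replicate 1 or 2 gave 0 each, and *chchd4a*-/- HS replicate 3 gave 7. Without WT HS replicate 3, 13 carriers were lower. DESeq2 called 9 higher and 10 lower, among them all 11. With spike-in scaling, which moved the median of all genes by 1.76 on the log2 scale, 41 carriers were called higher and 0 lower.

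**Figure D3:**
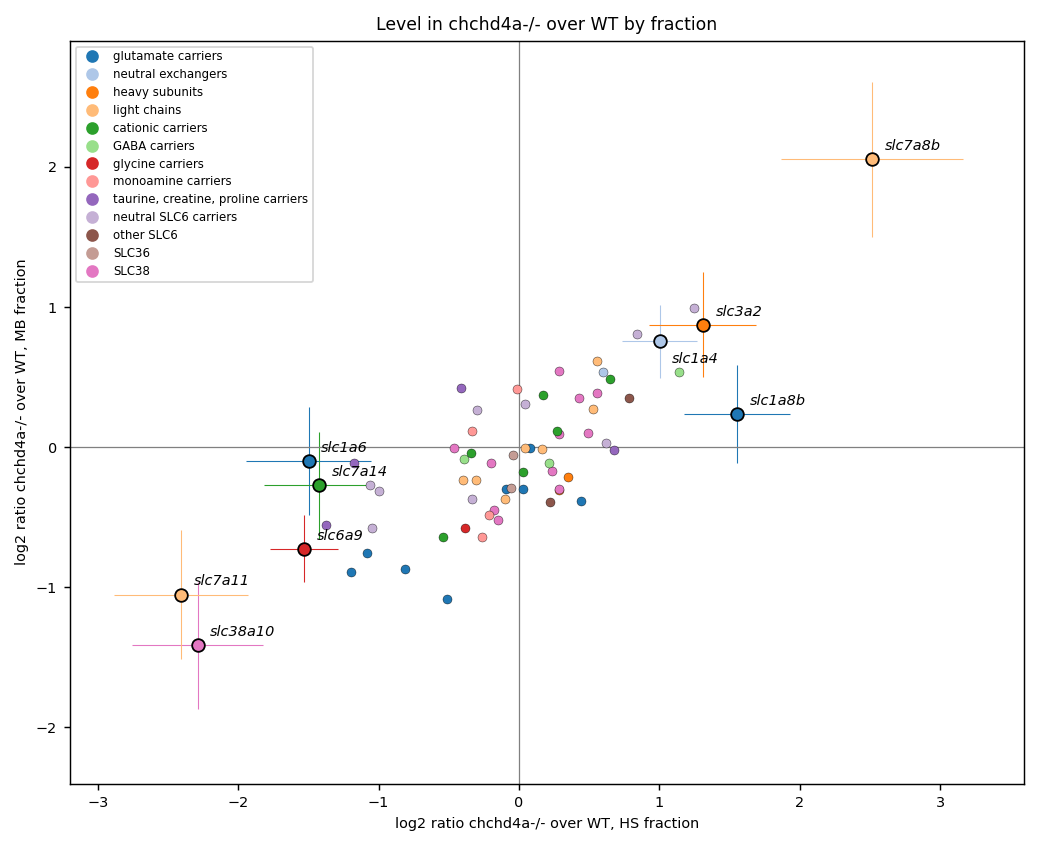
log2 ratio of *chchd4a*-/- over WT for the carriers reported by name in HS (x axis) and MB (y axis), colored by role, TMM scaling. Large symbols with SE bars mark those called in HS. *slc7a11* and *slc38a10* lie at the lower left and *slc7a8b* at the upper right (with spike-in scaling, the lower carriers shown lie above 0 in HS).

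The glycine carrier *slc6a9* was lower in *chchd4a*-/- HS relative to the bulk of genes, but not with spike-in scaling, where its log2 ratio was 0.51. *slc6a9* went from 304, 183, and 165 to 68.7, 81, and 76.2 CPM, at -1.53 ± 0.24 (adjusted p = 0.00326) by edgeR, and the groups did not overlap. The call held in all 13 fits in which libraries were left out. The summed level of both glycine carriers was 241 ± 71.8 CPM (SD, n = 3) in WT HS and 93.8 ± 9.02 CPM in *chchd4a*-/- HS. Most of each sum was *slc6a9*, with means of 217 and 75.3 CPM. The other glycine carrier, *slc6a5*, was at -0.38 and not called. It had 20, 24, and 28.5 CPM in WT HS and 14.8, 18.6, and 22.2 CPM in *chchd4a*-/- HS, which overlap. Of the 6 GABA carriers, 2 were called lower in *chchd4a*-/- HS and 0 higher. Their summed level was 205 ± 31.8 CPM (SD, n = 3) in WT HS and 84.0 ± 6.23 CPM in *chchd4a*-/- HS. With spike-in scaling, 0 carriers were called lower in HS. Among the GABA carriers not called, *slc6a11a*, *slc6a11b*, and *slc6a13* were at 0.22 ± 0.35 (adjusted p = 0.684), -0.39 ± 0.45 (adjusted p = 0.559), and 1.14 ± 0.41 (adjusted p = 0.0669).

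Some markers of neurons and glia were lower in the same libraries. Of 7 neuron markers, 4 could be matched, and *elavl3* and *elavl4* were lower in *chchd4a*-/- HS at -1.07 and -1.41 (edgeR adjusted p = 0.0223 and 0.0116), while *stmn2a* and *stmn2b* were not called. The summed level of the 4 was 3074 to 3497 CPM in WT HS, 905 to 2386 in *chchd4a*-/- HS, 885 to 1015 in WT MB, and 846 to 941 in *chchd4a*-/- MB. Of 5 glia markers, 3 could be matched. *mbpa*, a gene of myelin, was lower in *chchd4a*-/- HS at -1.35 (adjusted p = 0.0203), while *gfap* and *s100b* were not called, at 0.01 (adjusted p = 0.987) and 0.58 (adjusted p = 0.0685). The summed level of the 3 was 617 to 1093 CPM in WT HS and 398 to 479 CPM in *chchd4a*-/- HS. In MB it was 974 to 1803 CPM in WT and 392 to 714 CPM in *chchd4a*-/-. No matched marker was at 0 in any library. Of 9 vesicular carriers of transmitters, 6 were lower in *chchd4a*-/- HS and 0 higher, with a median of -1.40. The liver markers (5 of 5 matched) and the pronephros markers (4 of 5) had 0 called in HS. The falls of *elavl3*, *elavl4*, and *mbpa* and the median of the vesicular carriers were smaller than the 1.76 by which spike-in scaling moved all genes. The part of these shifts in the levels of the carriers was not tested.

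**Figure D4:**
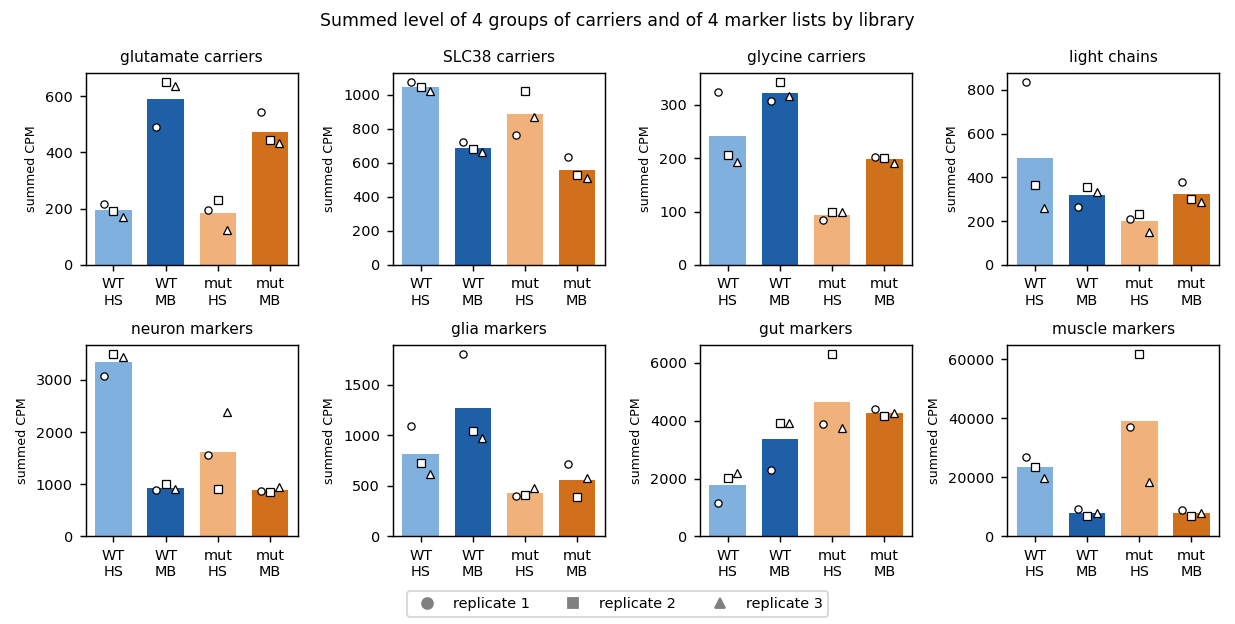
Summed CPM (TMM scaling) of 4 groups of carriers (upper row) and 4 marker lists (lower row) in each library; bars are means and symbols mark the replicates. The sums of the glycine carriers and of the neuron and glia markers are lower in *chchd4a*-/- HS than in WT HS at this scaling. By gene, 1 of 2 glycine carriers, 2 of 4 neuron markers, and 1 of 3 glia markers were called lower there.

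*slc7a11* was lower in *chchd4a*-/- HS by 2.41 ± 0.48 on the log2 scale (edgeR adjusted p = 0.006), a 5.3-fold difference, though the ratio was 0.08 with spike-in scaling. The mutant HS libraries held 75.9, 82.7, and 62.3 CPM, all below the lowest WT HS library, and without WT replicate 1 of both fractions the ratio was -1.43 (adjusted p = 0.00948). *slc38a10* had 192, 61.9, and 49.1 CPM in WT HS and 16.7, 20.3, and 25 CPM in *chchd4a*-/- HS. Here too WT replicate 1 was the highest, the groups did not overlap, and the ratio was -2.29 ± 0.47 (adjusted p = 0.0065), or -1.38 (adjusted p = 0.00311) without WT replicate 1. *slc7a14* was at -1.42 ± 0.39 (adjusted p = 0.0245) and *slc1a6*, under 1 CPM in all but 1 HS library, at -1.50 ± 0.45 (adjusted p = 0.0338). Without WT replicate 1 these were at -0.62 and -0.92 and were not called (adjusted p = 0.0988 and 0.151), and the calls were also lost without WT HS replicate 1 alone and without *chchd4a*-/- HS replicate 1 or 3. With spike-in scaling, the ratios of *slc38a10*, *slc7a14*, and *slc1a6* were 0.02, 0.96, and 0.76.

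The 4 carriers that were higher in *chchd4a*-/- HS were *slc3a2*, *slc1a4*, *slc7a8b*, and *slc1a8b*. They also lay above 0 with library totals and with spike-in totals. These scalings moved the median of all genes up, by 0.07 and 1.76, so this outcome was fixed beforehand and lends the calls no weight. The heavy subunit *slc3a2* (ENSDARG00000037012) had 38.6, 34.4, and 32 CPM in WT HS and 87.6, 129, and 43 CPM in *chchd4a*-/- HS. Every mutant library was above every WT library, replicate 3 by little, and the ratio was 1.31 ± 0.38 (adjusted p = 0.0305) by edgeR, 2.48-fold higher. *slc1a4* went from 6.48, 5.42, and 5.27 to 11.2, 14.6, and 8.54 CPM, at 1.00 ± 0.27 (adjusted p = 0.0213), 2-fold higher. *slc1a8b* went from 0.958, 1.04, and 0.923 to 3.03, 4.25, and 1.31 CPM, at 1.55 ± 0.38 (adjusted p = 0.0137). For *slc7a8b*, the levels were 0.128, 0.311, and 0.173 CPM and 1.85, 1.49, and 0.291 CPM, which overlap in mutant replicate 3, at 2.51 ± 0.65 (adjusted p = 0.018). Each call was lost without *chchd4a*-/- HS replicate 1 or without replicate 2, that of *slc3a2* and *slc1a4* also without WT HS replicate 2 or 3, that of *slc7a8b* without WT HS replicate 1, and those of *slc7a8b* and *slc3a2* without replicate 1 of both WT fractions (adjusted p = 0.0558 and 0.0513). Over all such fits the ratios stayed above 0, at 0.86 to 1.63 for *slc3a2* and 0.75 to 1.17 for *slc1a4*.

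Of the 5 gut markers, all matched, 1 was called in these libraries. They summed to 1145 to 2195 CPM in WT HS and 3735 to 6294 CPM in *chchd4a*-/- HS, with replicate 2 of the mutant the highest, and *apoa1b*, the one called, was higher at 1.73 (edgeR adjusted p = 0.0115). It held 743, 907, and 956 CPM in WT HS and 2357, 4861, and 1410 CPM in *chchd4a*-/- HS, most of the sum in mutant replicates 1 and 2. The others were not called, with *fabp2* at 1.06, *vil1* at 0.84, *apoa4a* at 0.12, and *cdx1b* at -1.01. Of 5 muscle markers, 3 were matched, at 19876 to 26780 CPM in WT HS and 18284 to 61788 CPM in *chchd4a*-/- HS, and *ckmb* was higher at 1.20 (adjusted p = 0.0281). *slc6a19a.2*, a counterpart of a carrier of gut and kidney, was at 1.25 ± 0.43 (adjusted p = 0.0597) in HS. Whether these shifts have a part in the levels of the 4 carriers was not tested.

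Of the 12 members whose mammalian counterparts are ATF4 targets, 2 were higher in *chchd4a*-/- HS (*slc3a2* and *slc1a4*), 2 were lower (*slc7a11* and *slc6a9*, both above 0 with spike-in scaling), and 8 were not called, with a median of 0.10. Among those not called, *slc1a5* was at 0.60 ± 0.33, *slc7a3a* at 0.65 ± 0.31, *slc3a2a* at 0.28 ± 0.24, *slc7a5* at -0.40 ± 0.32, and *slc38a2* at -0.15 ± 0.20. Of 17 other genes of that pathway that could be matched, of 18 listed, 4 were higher and 1 was lower, with a median of 0.48. The glutathione-degrading enzyme gene *chac1* had 86.5, 246, and 222 CPM in WT HS and 546, 916, and 400.0 CPM in *chchd4a*-/- HS (1.75, edgeR adjusted p = 0.012). *sesn2*, *atf4b*, and *psat1*, a gene of serine synthesis, were at 1.17, 0.99, and 0.72, and *ddit3* was lower at -1.69, a fall smaller than the shift of spike-in scaling.

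In MB, 0 of the 72 carriers were called higher or lower in *chchd4a*-/- by edgeR, beside 0.0128% and 0.0256% of all genes. At an unadjusted p under 0.05, 5 were higher and 9 lower (3.85% and 6.4% of all genes), and the median log2 ratio was -0.11 over the carriers and -0.03 over all genes. Every mutant MB library was above every WT MB library for 7 carriers (13.9% of all genes) and below for 16 (15.3%). DESeq2 called 1 higher, *slc7a8b*, and 2 lower. *slc7a8b* had 0.648, 1.22, and 0.886 and 5.86, 3.61, and 2.06 CPM, without overlap, at 2.05 ± 0.56 with adjusted p of 0.192 by edgeR and 0.0215 by DESeq2. The neuron markers *elavl3* and *elavl4* were at -0.18 and -0.03 in MB. The glia markers *mbpa*, *gfap*, and *s100b* were at -1.35, -0.94, and -0.03 there (edgeR adjusted p = 0.183, 0.209, and 0.985). For the 9 vesicular carriers the median in MB was -0.51, with 0 called. None of the following was called by either tool. In the mutant MB fraction, *slc6a9* was at -0.72 ± 0.24 (adjusted p = 0.287), *slc1a2a* at -1.08 ± 0.32 (adjusted p = 0.229), *slc7a11* at -1.05 ± 0.46 (adjusted p = 0.454), *slc38a10* at -1.41 ± 0.45 (adjusted p = 0.27), *slc3a2* at 0.87 ± 0.38 (adjusted p = 0.449), and *slc1a4* at 0.75 ± 0.26 (adjusted p = 0.322).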

How the data were processed

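PolyA RNA of 12 libraries was sequenced as read pairs. The authors quantified reads with Salmon 1.4.0 against spliced transcripts of danRer11 with Ensembl annotation and spike-ins, and the deposited tables hold expected counts per gene (31778 genes and 92 spike-ins), not scaled to library size; 30.5% of the values are not whole. The strand setting is not given in the sources used here. Spike-in rows entered neither the library sizes nor the tests.

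Expected counts were rounded. Genes with more than 50 counts over the 6 libraries of a genotype were kept. edgeR 4.0.16 (R 4.3.3) with TMM scaling gave quasi-likelihood F tests with Benjamini-Hochberg adjustment over all genes, where the authors used DESeq2. MB was compared with HS in each genotype on 6 libraries, and genotypes on all 12 with a mean per group. SE is the log2 ratio divided by the square root of F. The tests were also tried on simulated counts whose spread was taken from the fits of these data, with the outcome not reported here. Alternatives were DESeq2 1.42.0, library totals, spike-in totals, TMM without mtDNA genes, no filter on low counts, a filter of at least 10 counts per library, other sets of libraries in the fit, the replicate block, and libraries left out.

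Replicate numbers seem to pair the fractions within a genotype, though the main calls do not use this. Deviations of equal numbers in HS and MB correlated over 20441 genes at 0.606, 0.551, and 0.478 in WT and 0.302, 0.353, and 0.541 in *chchd4a*-/-. In WT, unequal numbers 2 and 3 correlated as well, at 0.505 and 0.333, and the first of these exceeds the 0.478 of the equal number 3. The pairing is thus not certain. Across genotypes, where equal numbers pair nothing, they correlated at -0.218 to 0.380. The highest of these exceeds the 0.302 and 0.353 within *chchd4a*-/-, so the pairing there is not certain either. Genes are not independent replicates.

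Symbols came from the paper's supplement for 35 members and from a reference table for 40. Named carriers were, in each comparison, the 8 largest changes per direction among those called with a mean of at least 1 CPM in a group, all heavy subunits, monoamine, glycine, and ATF4-list carriers, the 2 members per family with the highest mean CPM, and paralogues on both sides of 0. Other carriers and *slc7a6os* are named for completeness, after their values were seen. Of the 74 carriers, 25 were called in no comparison. Members, lists, and alternatives were chosen with earlier results of these data known. Some members are counted but are not reported by name here. No sequences were printed, as no table of sequences was used here.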

Additional observations from a re-analysis of the deposited data

How the results depend on the processing

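No call of a named carrier changed direction under any alternative once the shift of all genes by the scaling was taken off. Taking it off removes most of what a change of scaling does. With the shift left in, every HS-enriched carrier lay above 0 with spike-in totals, as did the ratios given above for lower carriers in HS. Counts of MB-enriched carriers in WT (33) became 52 with library totals, 70 with spike-in totals, and 58 without WT replicate 1 of both fractions, and ran from 0 to 50 with 1 library left out. HS-enriched carriers in WT (3) became 0 with spike-in totals and ran from 0 to 3. In *chchd4a*-/-, 33 MB-enriched carriers became 63 with library totals, 68 with spike-in totals, and 1 without replicate 1 of both fractions, and ran from 17 to 48. The 3 HS-enriched carriers there became 1 with library totals, 0 with spike-in totals, and 1 without replicate 1 of both fractions, and ran from 1 to 2. In HS, 4 higher carriers became 9 with DESeq2, 0 with only the 6 HS libraries, 0 with the replicate block across genotypes, and 41 with spike-in totals, and ran from 0 to 7. The 7 lower carriers became 0 with only the 6 libraries, 0 with the block, and 0 with spike-in totals, and ran from 5 to 13. In MB, DESeq2 called 1 higher and 2 lower. Lower carriers numbered 1 with only the 6 MB libraries, 3 with the block, and 1 without WT replicate 1, and ran from 0 to 2. Higher ones ran from 0 to 0. The difference between genotypes in the MB over HS ratio gave 0 calls in either direction under every alternative run. With the replicate number as a block, 44 carriers were MB-enriched in WT and 47 in *chchd4a*-/-, and 3 and 4 were HS-enriched. The block across genotypes pairs nothing in the design. In HS it was fitted on the 6 libraries compared, which gave 0 calls without it too, so its part in the lost calls cannot be told. Of the calls of named carriers under the alternatives, 786 were counted as the same, 182 kept the direction and lost the call, and 7 moved by more than their SE with spike-in totals. The 786 include 61 with library totals and 54 with spike-in totals. For these, the same means a ratio within its SE of the main one once the shift of all genes was taken off. Whether the call held was not part of that count. The cause of these changes was not tested. Levels near or under 1 CPM, as for *slc7a8b*, *slc1a6*, and *slc6a4b*, limit what can be said of these genes, and 3 libraries per group limit the rest.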
